A study of Mus musculus with 207 samples.

Results

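The 35 genes described here drive or accompany the cell division cycle. They were given as a list of symbols that covers cyclins, cell cycle kinases, replication factors, enzymes of deoxynucleotide supply and mitotic proteins, and each symbol was matched to its Ensembl identifier. All 35 were found among the 55536 genes of the jejunum and liver count tables, and all 35 passed the filter on low counts in both tissues. The tissues came from C57BL/6 mice on 6 diets, and no genotype other than the strain is labelled. The diets were written WPI-30 or CAS-30, each combined with FAT-20, FAT-40 or FAT-55, where WPI is whey protein isolate and CAS is casein. The labels give no unit for these numbers and no age or sex. Every group carried the same protein level, so by their labels the groups differed in protein source and fat level. The labels do not say what else in the diet changed as fat rose, so fat cannot be told apart from such a change. WPI groups held 12 mice at each fat level, and CAS groups held 11, 12 and 11 mice from the low to the high fat level. By their animal identifiers, the same 70 mice gave 70 jejunum and 70 liver libraries, and the study asked how protein source and fat level act together on these tissues.

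The cell cycle is driven by cyclins that switch on their partner kinases in turn. D-type and E-type cyclins lift the block that pocket proteins place on E2F factors, and E2F factors then switch on genes for DNA replication. Cdc6 and Cdt1 load a ring of Mcm proteins onto replication origins, and Pcna later clamps the polymerases to the DNA that the ring unwinds. Cyclin A, cyclin B and Cdk1 carry the cell into mitosis, where Aurora and Polo-like kinases, spindle motors and checkpoint proteins sort the chromosomes. The jejunal epithelium is renewed all the time from dividing crypt cells, whereas most hepatocytes of an adult liver rest outside the cycle and can re-enter it.

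Libraries held 17.5 to 23.8 M counts on genes in jejunum and 21 to 41 M in liver. Levels are given as counts per M (CPM, scaled by TMM), or as TPM, which also divides by exon length, where genes or tissues are set side by side. Differences are log2 fold changes ± standard error from edgeR's quasi-likelihood test. A gene was called where its p, adjusted by Benjamini-Hochberg within a comparison across every gene tested, was under 0.05. Hepatocyte and Paneth cell markers fitted the tissue labels. The 7 hepatocyte markers summed to at least 67800 CPM in every liver library and at most 888 CPM in every jejunum library. The 6 Paneth cell markers of the small intestine summed to at least 1550 CPM in jejunum and at most 3.32 CPM in liver. However, 7 pancreas markers summed to 1100 CPM in the highest WPI FAT-40 liver library, where that group's median was 24.7 CPM. In the other liver groups they reached at most 43.9 CPM. No fit was run without the library at 1100 CPM. In bulk tissue, fewer dividing cells and less of a transcript per dividing cell cannot be told apart. Some libraries stood apart from their group in these genes. Jejunum WPI FAT-40 replicate 12 was the lowest of its group for 33 of the 35 genes, with 315 CPM of 12 crypt stem cell markers against 769 to 1220 CPM in the other libraries of that diet, and 85400 CPM of 14 villus enterocyte markers against 41000 to 67500 CPM. Liver CAS FAT-20 replicate 4 was the highest of its group for 21 of the 35, with 990 CPM of 8 Kupffer cell and macrophage markers against 178 to 489 CPM in the other libraries of that diet. Liver WPI FAT-40 replicate 5 was the highest of its group for 18 of the 35, and the log2 ratio of mean CPM for Mcm2 between WPI and CAS at FAT-40 was -1.139 without it and -1.015 with it.

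The jejunum carried far more of nearly all of these transcripts than the liver, and Plk1, Bub1 and Top2a, genes of mitosis, had the widest gaps. Of the 35 genes, 32 were higher in jejunum and 3 were lower, where 50.5% of all 18099 genes tested were called higher and 43.9% lower. The median difference of the 35 was 2.80 on the log2 scale, and that of all genes tested was 0.11. Plk1, the Polo-like kinase that runs through mitosis, had a median of 26.6 TPM over jejunum libraries and 0.369 TPM over liver libraries. Top2a, the topoisomerase that untangles sister chromosomes, had 28.2 TPM in jejunum and 0.453 TPM in liver. Mki67, which encodes the Ki-67 protein of dividing cells, had 33.7 TPM in jejunum and 0.676 TPM in liver. For these 3 genes no jejunum library came down to the highest liver library. The lowest jejunum library had 7.07 TPM of Mki67, and the highest liver library had 3.77 TPM.

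Most replication genes differed less between the tissues, but Cdc6, with 3.22 TPM in jejunum and 0.135 TPM in liver, had a log2 difference of 3.81, wider than that of some mitotic genes such as Aurka (1.51) and Kif20a (2.74). The Mcm genes had jejunum medians between 9.10 and 35.3 TPM and liver medians between 1.33 and 6.36 TPM. Pcna was the most abundant of the 35 in both tissues, with 100 TPM in jejunum and 24.3 TPM in liver, a log2 difference of 1.32 ± 0.03. Tk1, the thymidine kinase of the salvage pathway, had nearly equal medians, 15.7 TPM in jejunum and 15.5 TPM in liver, and its scaled counts were lower in jejunum by a log2 difference of -0.71 ± 0.07. Ccnd1, cyclin D1, had 14.7 TPM in jejunum and 9.83 TPM in liver, and E2f1, a transcription factor of the cycle, 5.06 TPM in jejunum and 3.04 TPM in liver. By scaled counts both were slightly lower in jejunum, with log2 differences of -0.15 ± 0.07 and -0.12 ± 0.06, so their direction turned with the scale. These 2 calls were lost with DESeq2 (adjusted p = 0.349 and 0.516), with edgeR after median-of-ratios scaling (0.224 and 0.34) and with edgeR and no filter on low counts (0.0708 and 0.0914). In 14 of the 35 genes some liver library reached the TPM range of the jejunum libraries, and in 21 none did. Overlap was not counted over all genes, so these counts cannot be read as particular to the 35.

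**Figure D1:**
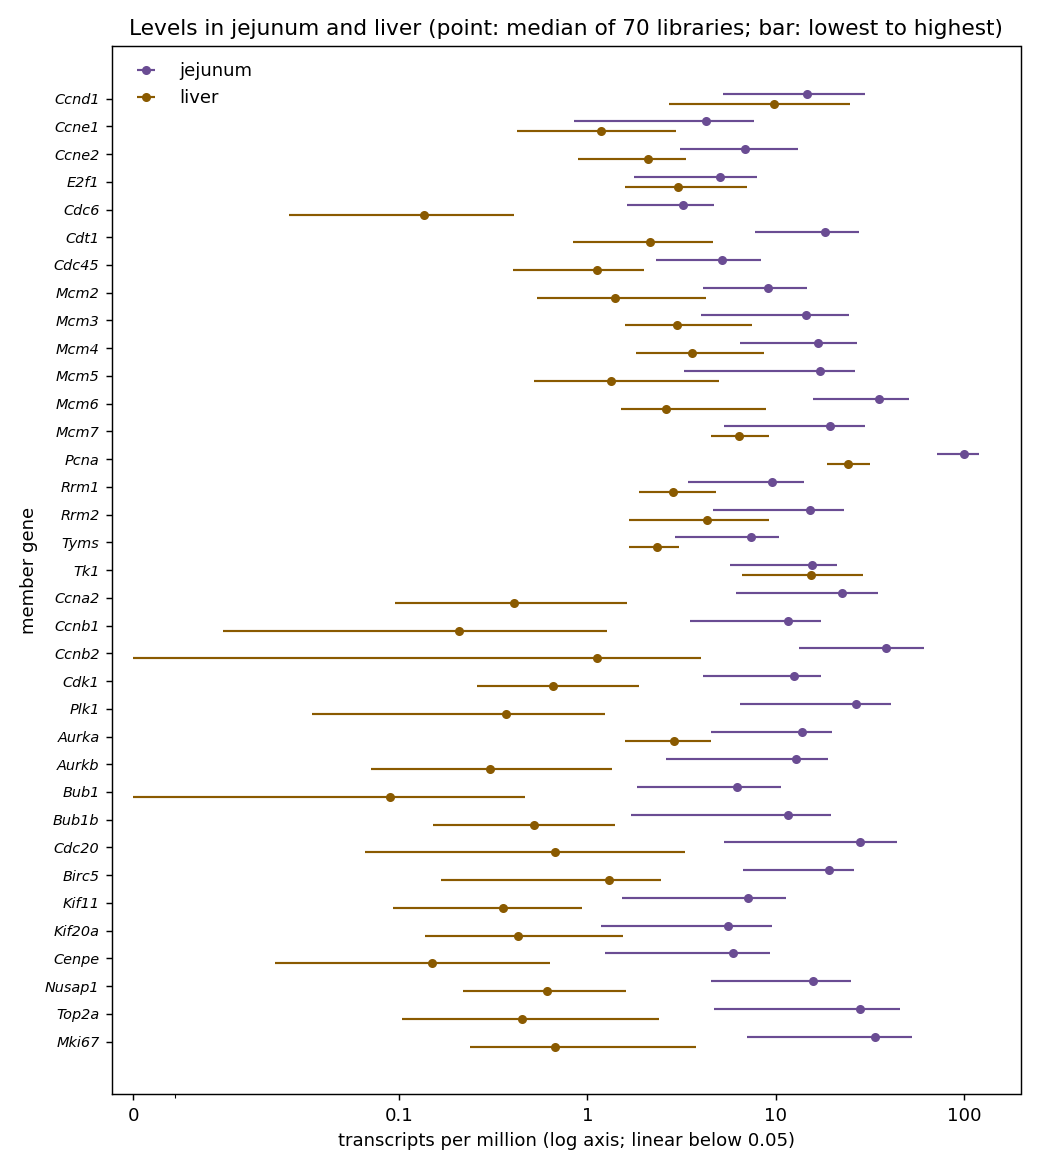
TPM of each of the 35 genes in jejunum (purple, upper point of each row) and liver (brown, lower point), on an x axis that is logarithmic above 0.05 and linear below. Points are medians of 70 libraries and bars run from the lowest to the highest library. Plk1, at 26.6 TPM in jejunum and 0.369 TPM in liver, sits far apart, and Tk1 at 15.7 and 15.5 TPM sits closest.

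In liver, higher fat on CAS went with higher levels of most of these genes. From FAT-20, 23 of the 35 were called higher and 0 lower at FAT-40, and 25 were called higher and 2 lower at FAT-55. Of all 15051 genes tested, 15.8% were called higher and 14.4% lower at FAT-40, and 22.6% higher and 20.7% lower at FAT-55. The median log2 fold change of the 35 was 0.74 at FAT-40 and 0.87 at FAT-55, and that of all genes tested was -0.001 at FAT-55. DESeq2 called 21 of the 35 at FAT-40, all higher and 0 lower. By edgeR 28 had an unadjusted p under 0.05 there in either direction, beside 6086 of all 15051 genes.

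Among the genes that open the cycle, E2f1 had the smallest adjusted p. E2f1 (ENSMUSG00000027490) lies at chr2:154559407-154569892, Ccnd1 (ENSMUSG00000070348) at chr7:144929931-144939925 and Mki67 (ENSMUSG00000031004) at chr7:135689784-135716361, all on the minus strand in GENCODE M21 on GRCm38. On CAS, its lowest, median and highest liver libraries had 2.25, 2.75 and 4.67 CPM at FAT-20, 3.71, 6.29 and 7.14 CPM at FAT-40, and 4.91, 5.96 and 7.64 CPM at FAT-55. Every FAT-55 library lay above every FAT-20 library. E2f1 rose by 1.03 ± 0.13 at FAT-40 (adjusted p = 4.15e-09) and by 1.02 ± 0.13 at FAT-55 (adjusted p = 3.53e-09). Ccnd1 had 9.62, 13.3 and 16.2 CPM at FAT-20, 15.2, 24.5 and 29.0 CPM at FAT-40, and 14.0, 22.0 and 38.3 CPM at FAT-55, with some overlap between the groups. It rose by 0.80 ± 0.17 and 0.93 ± 0.17 (adjusted p = 0.000168 and 1.06e-05). The E-type cyclin genes, which act after cyclin D, did not pass the test: at FAT-55, Ccne1 and Ccne2 had 1.13 ± 0.43 and 2.23 ± 0.58 CPM, against 1.32 ± 0.67 and 2.75 ± 0.51 CPM at FAT-20 (SD, n = 11 each).

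The genes of origin licensing split in these livers. Mcm2 to Mcm6, which encode subunits of the replicative helicase, rose at both fat levels on CAS. Mcm2 had 1.57, 3.11 and 4.90 CPM at FAT-20, 4.02, 6.29 and 11.1 CPM at FAT-40, and 5.13, 7.23 and 10.2 CPM at FAT-55, and here too every FAT-55 library lay above every FAT-20 library. Its rise was 1.17 ± 0.17 at FAT-55 (adjusted p = 1.13e-07). Mcm5 rose by 1.44 ± 0.22 at FAT-40 and 1.19 ± 0.22 at FAT-55, and Mcm3, Mcm4 and Mcm6 rose by 0.69 to 0.86 at either level. Mcm7, the subunit with the highest liver level, was not called, with 11.1 ± 1.16 CPM at FAT-55 and 12.04 ± 1.496 CPM at FAT-20 (SD, n = 11 each). Pcna was not called either, with 22.8 ± 1.76 CPM at FAT-55 and 22.5 ± 2.04 CPM at FAT-20. Cdc6, which loads the helicase, rose by 1.05 ± 0.32 at FAT-55, from few reads: 5 to 18 per library at FAT-55 and 2 to 9 at FAT-20. Its partner Cdt1 went the other way, with 2.46 ± 0.78 CPM at FAT-55 and 3.35 ± 0.72 CPM at FAT-20, and fell by 0.45 ± 0.18 (adjusted p = 0.043).

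The enzymes of deoxynucleotide supply moved little or fell. Tk1 had 11.7, 18.1 and 37.4 CPM at FAT-55 and 14.6, 32.7 and 58.7 CPM at FAT-20, wide ranges that overlapped, and fell by 0.73 ± 0.22 (adjusted p = 0.0059). Rrm1, the large subunit of ribonucleotide reductase, rose by 0.19 ± 0.08, with 13.3 ± 1.96 CPM at FAT-55 and 11.7 ± 1.48 CPM at FAT-20. Its small subunit Rrm2 and the thymidylate synthase Tyms were not called at FAT-55, and Tyms rose by 0.24 ± 0.07 at FAT-40.

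Most genes of mitosis were scarce in liver, and all but Aurka, a mitotic kinase, were called higher at FAT-55 on CAS. Cdc20, the activator of the complex that ends metaphase, had 0.0758, 0.282 and 1.003 CPM at FAT-20 on CAS, 0.417, 0.949 and 2.25 CPM at FAT-40, and 0.916, 1.45 and 2.24 CPM at FAT-55. The highest FAT-20 library, replicate 4, was the one that reached into the FAT-55 range. Cdc20 rose by 1.77 ± 0.35 at FAT-40 and 2.199 ± 0.35 at FAT-55 (adjusted p = 5.87e-05 and 5.67e-07). In reads this was 25 to 63 per library at FAT-55 and 2 to 26 at FAT-20. Mki67 had 0.986, 1.48 and 9.65 CPM at FAT-20, 2.43, 4.95 and 8.60 CPM at FAT-40, and 3.83, 6.32 and 12.4 CPM at FAT-55. All FAT-55 libraries were above the FAT-20 median, and 1 FAT-20 library, again replicate 4, was higher than all but 1 of the FAT-55 libraries. Mki67 rose by 1.05 ± 0.26 at FAT-40 and 1.5 ± 0.27 at FAT-55 (adjusted p = 0.00129 and 5.54e-06), and without that library by 2.0 at FAT-55. Top2a rose by 1.52 ± 0.28 (adjusted p = 1.25e-05), with 4.01 ± 1.40 CPM at FAT-55 and 1.40 ± 1.61 CPM at FAT-20.

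Of the 7 cyclins and kinases of S phase and mitosis, 6 were called higher at FAT-55 on CAS, among them Ccna2 (1.31 ± 0.25) and Ccnb1 (1.63 ± 0.37), the cyclins A2 and B1, and Cdk1 (0.77 ± 0.21), their kinase. All 4 genes of the spindle checkpoint and mitotic exit rose, with Bub1b, a checkpoint component, at 0.99 ± 0.19. All 6 genes of spindle motors, chromosome structure and Ki-67 rose as well, from 0.46 for Kif11, the motor that separates spindle poles, to 1.52 for Top2a. The log2 ratio of mean CPM moved by more than 1.5 times when CAS FAT-20 replicate 4 was left out for Cenpe (1.66 without it and 1.10 with it) and Top2a (1.63 and 1.03) at FAT-40, and for Aurkb (1.48 and 0.88) at FAT-55. These ratios grew without it. The count of genes called was 26 at either fat level without it, against 23 at FAT-40 and 27 at FAT-55 with it. Of all genes 32.5% and 45.0% were called without it, and 30.2% and 43.3% with it.

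**Figure D2:**
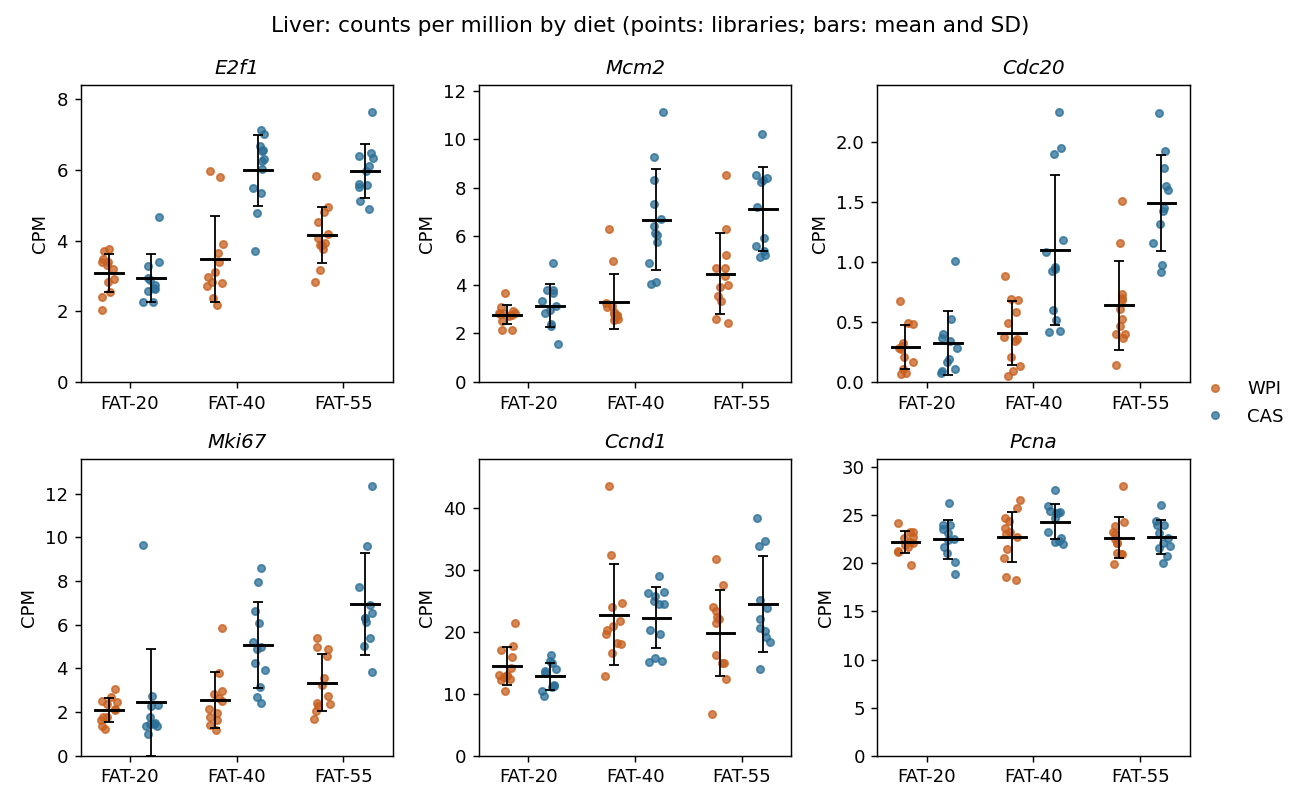
CPM of E2f1, Mcm2, Cdc20, Mki67, Ccnd1 and Pcna in liver (y axis) by fat level (x axis), with WPI in orange left of CAS in blue. Points are libraries, bars are means and SDs of 11 or 12 mice, and the lower bar of Mki67 on CAS at FAT-20 reaches 0, with 1 library at 9.65 CPM.

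The promoters of the members that changed most clearly are shown for the sequences they carry. In each functional group the window shown is that of the member with the smallest adjusted p among those in RefSeq's table for GRCm38.p6, which gives 250 bases before to 50 after the start, 5′ to 3′ on the gene's strand, and held 29 of the 35 genes. The start lay within 100 bases of the GENCODE M21 start for 25 of the 29. Capitals mark matches, on either strand, to TTTGAA (a CHR-type element), CCAAT (the NF-Y box) and the E2F-type letters TTTGGCGC, TTTCGCGC, TTTCCCGC and TTTGGCGG. E2f1 is not shown, because its RefSeq start lies over 100 bases from its GENCODE start, nor is Tyms, whose window holds none of these letters. Ccna2 had a smaller adjusted p than Ccnb2 but has no entry in the table. Mcm5 was added after its values were seen, as the gene with the smallest adjusted p among those whose window holds E2F-type letters. In Mcm5 the capitals TTTCGCGCCAAA are TTTCGCGC overlapping TTTGGCGC on the other strand. The windows are Mcm2 at chr6:88898731-88899030 (minus strand), Mcm5 at chr8:75109259-75109558 (plus strand), Ccnb2 at chr9:70421505-70421804 (minus strand), Cdc20 at chr4:118437294-118437593 (minus strand) and Mki67 at chr7:135716330-135716629 (minus strand).
Mcm2: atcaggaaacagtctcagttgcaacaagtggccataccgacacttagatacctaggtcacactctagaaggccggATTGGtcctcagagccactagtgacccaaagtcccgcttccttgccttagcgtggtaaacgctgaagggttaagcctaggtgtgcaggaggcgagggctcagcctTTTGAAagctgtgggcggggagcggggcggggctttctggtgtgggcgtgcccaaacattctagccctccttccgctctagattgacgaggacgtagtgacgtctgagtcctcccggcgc
Mcm5: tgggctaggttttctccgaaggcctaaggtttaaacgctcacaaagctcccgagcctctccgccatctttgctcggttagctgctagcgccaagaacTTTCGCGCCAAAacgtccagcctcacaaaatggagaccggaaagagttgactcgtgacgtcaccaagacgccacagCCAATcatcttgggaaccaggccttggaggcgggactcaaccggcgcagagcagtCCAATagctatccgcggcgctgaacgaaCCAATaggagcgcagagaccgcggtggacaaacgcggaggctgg
Ccnb2: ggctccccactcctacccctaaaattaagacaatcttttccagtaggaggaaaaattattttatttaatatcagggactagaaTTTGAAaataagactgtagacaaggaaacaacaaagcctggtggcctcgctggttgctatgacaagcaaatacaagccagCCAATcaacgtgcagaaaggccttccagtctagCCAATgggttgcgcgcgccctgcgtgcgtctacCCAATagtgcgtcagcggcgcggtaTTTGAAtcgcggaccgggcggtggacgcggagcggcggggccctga
Cdc20: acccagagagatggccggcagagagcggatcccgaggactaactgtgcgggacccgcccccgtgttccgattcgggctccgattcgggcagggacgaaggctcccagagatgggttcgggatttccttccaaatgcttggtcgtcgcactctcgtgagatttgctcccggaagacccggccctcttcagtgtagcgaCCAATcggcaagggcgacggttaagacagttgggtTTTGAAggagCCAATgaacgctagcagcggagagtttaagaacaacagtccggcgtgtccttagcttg
Mki67: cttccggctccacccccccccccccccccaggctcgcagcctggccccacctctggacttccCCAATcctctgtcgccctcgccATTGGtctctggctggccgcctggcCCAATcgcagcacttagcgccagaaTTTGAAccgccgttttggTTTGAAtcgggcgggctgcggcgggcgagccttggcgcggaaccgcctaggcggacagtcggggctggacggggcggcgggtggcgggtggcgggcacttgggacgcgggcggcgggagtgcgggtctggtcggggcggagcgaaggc
TTTGAA occurred in the windows of 11 of the 29 genes and in 17.9% of all 32851 windows in the table. By group it was found for 4 of 5 genes of S phase and mitotic cyclins and kinases. It was found for 2 of 9 origin licensing genes and 0 of 4 genes of deoxynucleotide supply. CCAAT occurred in 21 of the 29 and in 37.4% of all windows. Any of the E2F-type letters occurred in 7 of the 29 genes and in 2.37% of all windows. Of these 7 genes, 6 were among the 9 of origin licensing. A gene was counted where any of its windows held the letters, so shares of genes and of windows differ in unit. All 29 genes were counted, also those whose start lay farther from the GENCODE start. Of the helicase genes shown, which rose on CAS, Mcm2 held CCAAT and TTTGAA but no E2F-type letters. Mcm5 held CCAAT and E2F-type letters but no TTTGAA. The mitotic genes Ccnb2, Cdc20 and Mki67 each held CCAAT together with TTTGAA. A match says only that the letters are there.

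On WPI fewer of these genes passed the test of fat in liver. At FAT-40, 1 of the 35 was called higher and 0 lower, where 4.19% of all genes tested were called higher and 2.35% lower. That gene was Ccnd1, with 12.9, 20.6 and 43.5 CPM at FAT-40 and 10.4, 13.1 and 21.4 CPM at FAT-20, a rise of 0.66 ± 0.16 (adjusted p = 0.00746). By edgeR 4 of the 35 had an unadjusted p under 0.05, beside 3116 of all 15051 genes, and DESeq2 called 1. At FAT-55, 14 were called higher and 1 lower, beside 14.6% and 12% of all genes. Mcm2 rose by 0.69 ± 0.17 (adjusted p = 0.00122), Ccnb1 by 1.51 ± 0.38 (adjusted p = 0.00181), Top2a by 1.082 ± 0.28 (adjusted p = 0.00239) and E2f1 by 0.43 ± 0.12 (adjusted p = 0.00635). Mki67 had 1.67, 2.99 and 5.41 CPM at FAT-55 and 1.21, 2.10 and 3.04 CPM at FAT-20, overlapping ranges, and rose by 0.69 ± 0.26 (adjusted p = 0.0405). The gene that fell was Cdt1, by 0.75 ± 0.18 (adjusted p = 0.000929), as it did on CAS.

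The fat response was tested directly for a difference between the protein sources. At FAT-40 the response on WPI minus that on CAS was -0.85 ± 0.18 for E2f1 (adjusted p = 0.00826). It was -1.18 ± 0.30 for Mcm5, -0.85 ± 0.24 for Mcm6 and -0.66 ± 0.19 for Mcm3 (adjusted p = 0.0277, 0.0437 and 0.0472). These 4 of 35 stand beside 1.49% of all genes tested. An unadjusted p under 0.05 was found for 12 of the 35, beside 2469 of all 15051 genes. At FAT-55, E2f1 alone was called, with a difference of -0.59 ± 0.18 (adjusted p = 0.0339), beside 6.82% of all genes. This share of the 35 lies below that of all genes. An unadjusted p under 0.05 was found for 10 of the 35, close to the share over all genes, 3455 of 15051. Without CAS FAT-20 replicate 4, 8 genes were called at FAT-40 and 7 at FAT-55, and the shares of all genes called were higher too, at 2.53% and 10.2%. With counts summed over mice whose identifiers share a stem, 0 were called at either level, beside 0.0% of all genes at FAT-40 and 0.0114% at FAT-55. With no filter on low counts, 1 was called at FAT-40 and 0 at FAT-55. DESeq2 called 5 at FAT-40 and 1 at FAT-55. The FAT-40 form of this test was added after seeing the data.

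**Figure D3:**
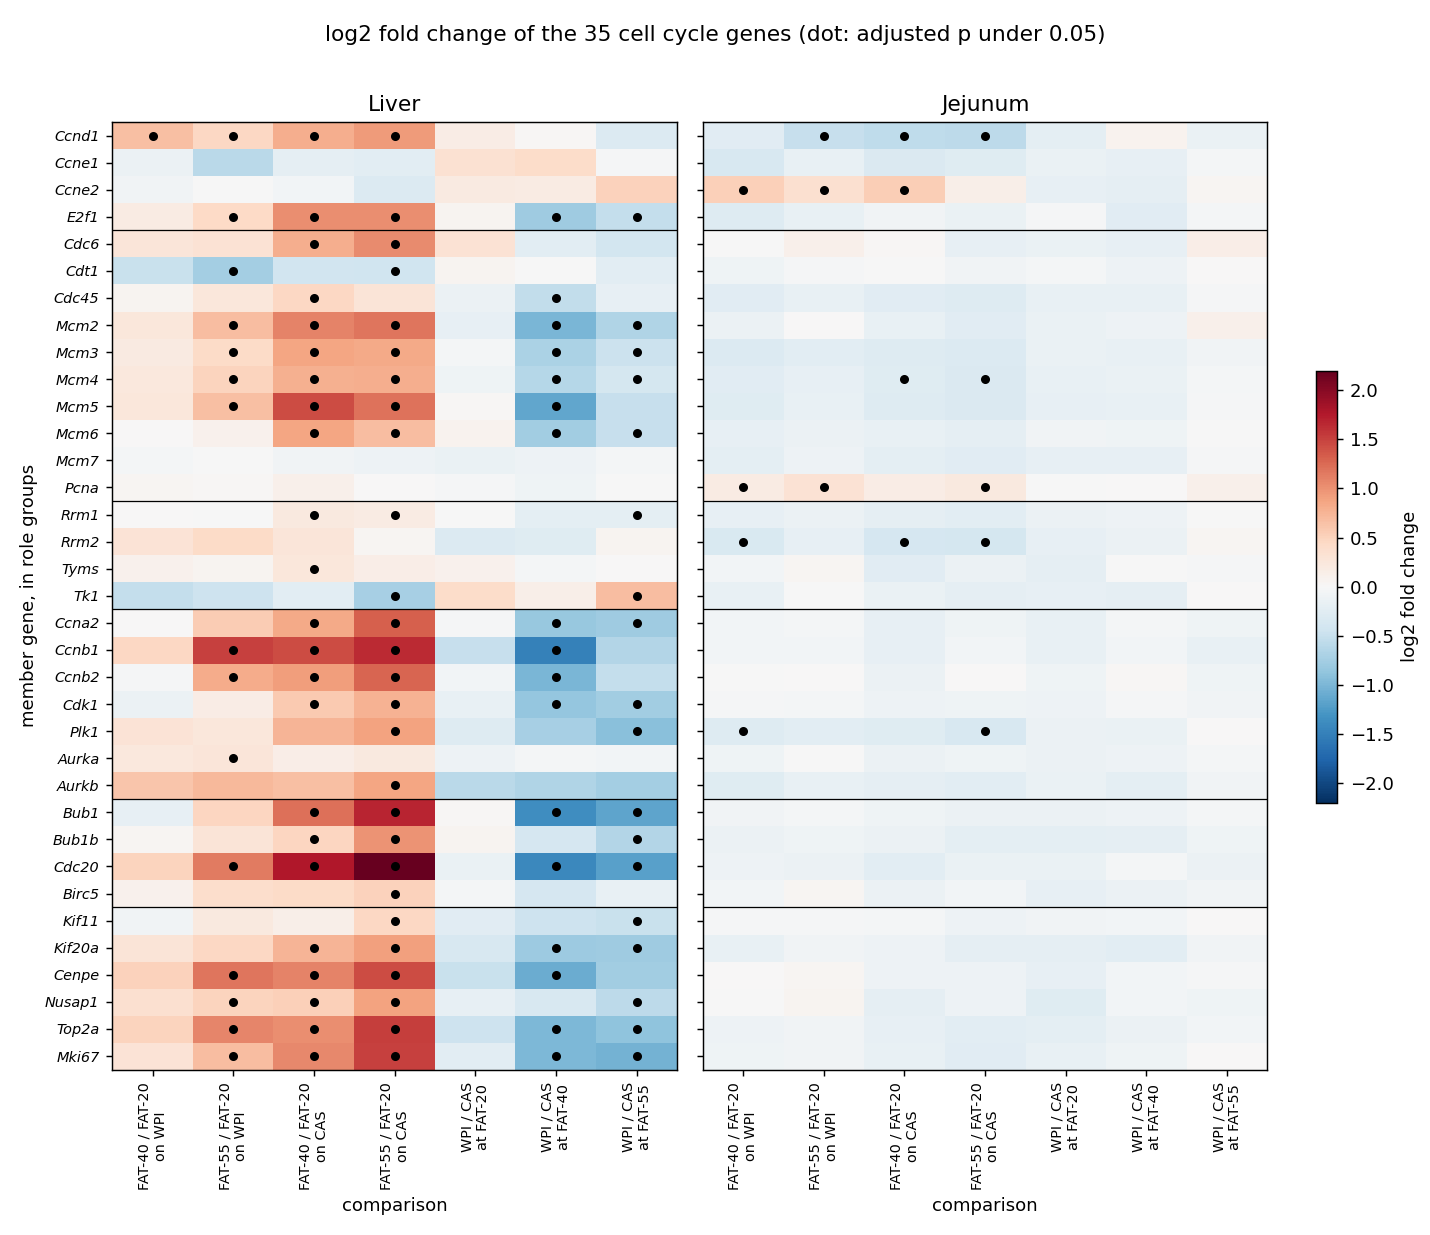
Log2 fold changes of the 35 genes (rows, by role) in 7 diet comparisons (columns) for liver (left) and jejunum (right), coloured from -2.2 to 2.2. Dots mark adjusted p under 0.05 by edgeR, and liver shows 25 genes called higher at FAT-55 on CAS where jejunum shows 1.

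Set against CAS at the same fat level, WPI livers had lower levels of 17 of these genes at each of FAT-40 and FAT-55, and no called difference at FAT-20. At FAT-20, 0 of the 35 were called by edgeR or by DESeq2, where edgeR called 0.512% of all genes in either direction. An unadjusted p under 0.05 was found for 0 of the 35, beside 2053 of all 15051 genes. At FAT-40, 0 of the 35 were called higher and 17 lower, where 3.85% and 4.37% of all genes were. At FAT-55, 1 was called higher and 17 lower, where 7.07% and 7.43% of all genes were. As a mean over the 3 fat levels, 2 were called higher and 23 lower, beside 7.1% and 7.56% of all genes, and the median log2 fold change of the 35 was -0.40.

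E2f1 had 2.19, 3.04 and 5.96 CPM in WPI livers at FAT-40, against 3.71, 6.29 and 7.14 CPM in CAS livers, and all 12 WPI libraries lay below the CAS median. Its log2 fold change was -0.78 ± 0.12 at FAT-40 (adjusted p = 1.96e-05) and -0.52 ± 0.12 at FAT-55 (adjusted p = 0.00268). Mcm2 had 2.55, 2.83 and 6.29 CPM in WPI livers at FAT-40, against 4.02, 6.29 and 11.1 CPM in CAS livers. Its log2 fold change was -1.01 ± 0.17 at FAT-40 and -0.67 ± 0.16 at FAT-55 (adjusted p = 3.18e-05 and 0.00359). Among mitotic genes, Mki67 had 1.67, 2.99 and 5.41 CPM in WPI livers at FAT-55, against 3.83, 6.32 and 12.4 CPM in CAS livers, with all 12 WPI libraries below the CAS median. The log2 fold change of Mki67 was -1.04 ± 0.25 at FAT-55 (adjusted p = 0.00317), and that of Cdc20 was -1.20 ± 0.31 (adjusted p = 0.00531). Top2a had -0.89 ± 0.26 (adjusted p = 0.0151).

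By role, the mean over fat levels called 6 of 10 licensing genes lower, 6 of 7 cyclins and kinases of S phase and mitosis, 3 of 4 checkpoint genes and all 6 genes of motors, chromosome structure and Ki-67. Pcna and Ccnd1 were not called, with log2 fold changes of -0.04 and -0.04. The 2 genes called higher were Tk1, at 0.41 ± 0.13 (adjusted p = 0.0191), and Ccne2, at 0.30 ± 0.11 (adjusted p = 0.0452). At FAT-55 Tk1 had 17.5, 31.7 and 53.9 CPM in WPI livers, against 11.7, 18.1 and 37.4 CPM in CAS livers, so the ranges overlapped.

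The counts of genes called were smaller after mice whose identifiers share a stem were summed. Over the 24 identifier stems per tissue, 0 genes were called higher and 14 lower as a mean over fat levels, 2 lower at FAT-40 and 0 at FAT-55. Of all genes 4.05%, 0.365% and 1.2% were called in these fits in either direction, so the calls fell over all genes as well. For the fat response, the stem sums gave 15 called at FAT-40 and 23 at FAT-55 on CAS, and 7 at FAT-55 on WPI, beside 15.7%, 28.8% and 12.4% of all genes. The labels do not say what mice of a stem share.

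**Figure D4:**
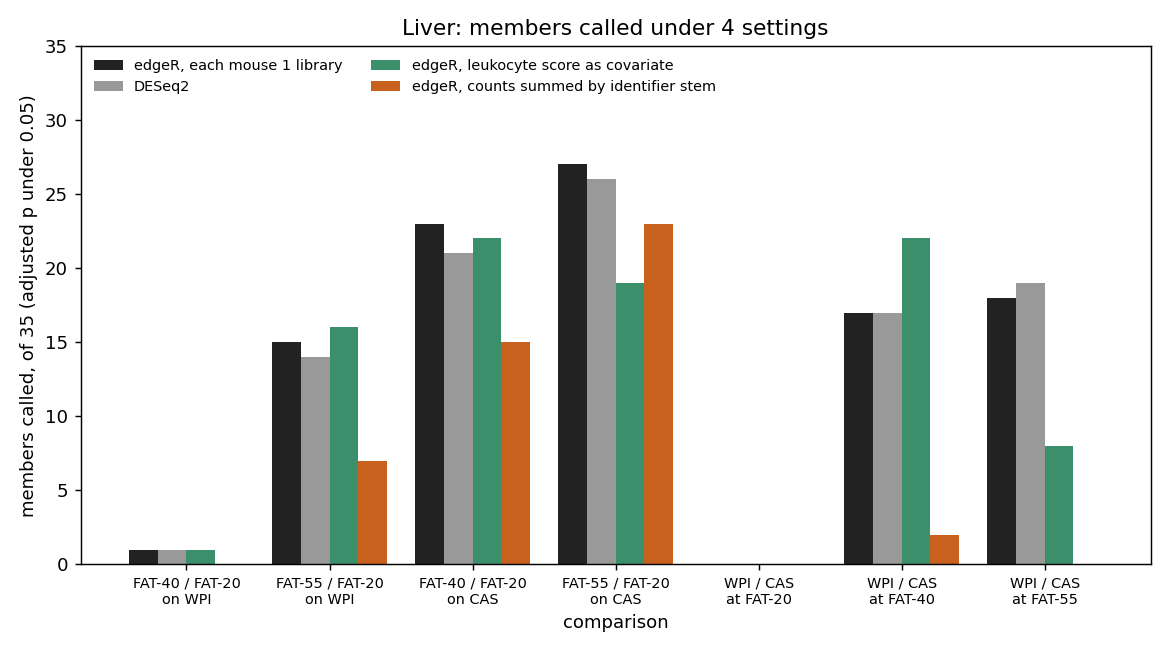
Number of the 35 genes called in liver (y axis, 0 to 35) in 7 diet comparisons (x axis) under edgeR, DESeq2, edgeR with a leukocyte score as a covariate and edgeR on stem sums. For WPI against CAS at FAT-55 the bars stand at 18, 19, 8 and 0 genes.

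White cell markers moved with part of this pattern. Of 8 leukocyte markers, 7 rose in liver at FAT-55 against FAT-20 on CAS, with Laptm5 at 0.62, Itgb2 at 0.75 and Ptprc, which encodes CD45, at 0.72 on the log2 scale. Their sum ran from 176 to 302 CPM at FAT-55, with a median of 225, and from 130 to 304 CPM at FAT-20, with a median of 181, the highest being replicate 4. Of 8 Kupffer cell and macrophage markers 2 rose there, and of 7 T cell markers 2. In that comparison 22.6% of all genes were called higher, near these 2 shares, and 20.7% lower. Between WPI and CAS at FAT-55, 4 of 8 fell. With a leukocyte marker score in the model, 19 of the 35 were called at FAT-55 on CAS (17 higher and 2 lower), 22 at FAT-40 on CAS, 22 for WPI against CAS at FAT-40, and 8 for WPI against CAS at FAT-55 (2 higher and 6 lower). The shares of all genes called in these 4 fits were 27.3%, 28.6%, 9.93% and 8.94%, and at FAT-55 they too were smaller than without the score. Its part in the remaining difference was not tested. Of 7 hepatocyte markers, 0 rose and 2 fell at FAT-55 on CAS, and their sum ran from 74200 to 91700 CPM at FAT-55 and from 84800 to 117000 CPM at FAT-20. All 3 adipose markers tested rose there, and 5 of 10 bile duct and stellate cell markers rose. The sum of all 7 listed adipose markers, tested or not, ran from 38.0 to 152 CPM at FAT-55 and from 11.4 to 43.8 CPM at FAT-20.

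Mitosis genes outside the 35 also moved in liver. Of 42 tested mitosis genes outside the 35, 32 rose and 3 fell at FAT-55 on CAS, with a median of 0.86. Zwilch, a kinetochore gene, was at 1.27, Tpx2, a spindle assembly factor, at 1.79, and Smc2, a condensin subunit, at 0.88. Of 31 other replication genes, 12 rose and 1 fell, with a median of 0.27. Chaf1a, a chromatin assembly factor, was at 1.29 and Rpa2, which coats single-stranded DNA, at 0.62, while Mcm10 fell by 0.71. Of 12 p53 target genes, 8 rose and 0 fell, with Ccng1 at 0.80, Zmat3 at 0.76 and Eda2r at 1.90. Of 8 inhibitors of cell cycle kinases and pocket proteins, 4 rose, with Rbl1, a pocket protein, at 1.04, Cdkn1a, the p21 inhibitor and itself a p53 target, at 1.76, and Cdkn1c, the p57 inhibitor, at 0.48. For WPI against CAS as a mean over fat levels, 1 mitosis gene rose and 25 fell, led by Hmmr at -1.17, 1 replication gene rose and 12 fell, and 4 p53 targets fell.

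In jejunum few of the 35 genes were called in any diet comparison. Between WPI and CAS, 0 of the 35 were called by edgeR at any fat level (given from low to high) or, last, as a mean over them, where 6.23%, 0.571%, 3.7% and 15.3% of all 16992 genes tested were. Of the 35, 1, 1, 0 and 6 had an unadjusted p under 0.05 in these comparisons, and DESeq2 called 0 in each. Of all 16992 genes, 3223, 2132, 2695 and 4678 had such a p. As a mean over fat levels 34 of the 35 log2 fold changes were negative, with a median of -0.10. Mki67 had 75.7, 124 and 141 CPM in WPI jejunum at FAT-55, against 86.6, 122 and 139 CPM in CAS jejunum. The ranges nearly coincided. In the same comparison white cell markers fell, with 8 of 8 leukocyte, 7 of 7 T cell and 10 of 12 B cell and germinal centre genes called lower as a mean over fat levels. The median sum of all 13 listed B cell and germinal centre genes was 37.3, 29.8 and 25.4 CPM in WPI groups from low to high fat. In CAS groups it was 43.4, 34.8 and 33.6 CPM. The groups differed more in their highest libraries, with 79.9, 89.4 and 30.1 CPM on WPI against 310, 274 and 397 CPM on CAS. No jejunal gene of the 35 passed the test of whether the fat response differed between protein sources, where 0.0% of all genes passed at FAT-55 and 0.0118% at FAT-40. At an unadjusted p under 0.05 the count was 0 by edgeR at both levels, and DESeq2 called 0. Of all 16992 genes, 1016 had such a p at FAT-55 and 1310 at FAT-40.

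Few of the 35 genes were called with fat in jejunum, in both directions, while most log2 fold changes were small and negative. At FAT-40 against FAT-20 on CAS, 1 was called higher and 3 lower, beside 12.7% and 12.4% of all genes, and on WPI 2 and 2, beside 12.7% and 13.0%. At FAT-55 on CAS 1 was called higher and 4 lower, beside 14.4% and 13.3%, and on WPI 2 and 1, beside 14.2% and 16.6%. These shares of the 35 lie at or below those of all genes. On CAS more of the 35 were called without WPI FAT-40 replicate 12, as given below. Called or not, 32 of the 35 were negative at FAT-40 on CAS, 32 at FAT-40 on WPI and 32 at FAT-55 on CAS. At FAT-55 on WPI 26 were. The median log2 fold changes of the 35 were -0.17, -0.12, -0.19 and -0.08 in this order. Those of all genes were -0.026, -0.018, -0.009 and -0.031.

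Ccnd1 fell with fat in jejunum, the opposite of its direction in liver. On CAS it had 23.2, 37.6 and 49.7 CPM at FAT-20, 17.2, 25.6 and 29.4 CPM at FAT-40, and 16.3, 24.8 and 36.2 CPM at FAT-55, and every library of the higher fat levels was below the FAT-20 median. It fell by 0.55 ± 0.16 at FAT-40 and 0.57 ± 0.16 at FAT-55 (adjusted p = 0.00813 and 0.00653), and on WPI by 0.50 ± 0.16 at FAT-55 (adjusted p = 0.0109). Rrm2 fell by 0.37 ± 0.12 and 0.38 ± 0.12 on CAS at FAT-40 and FAT-55, and Mcm4 by 0.27 ± 0.10 and 0.31 ± 0.11. Plk1 fell by 0.36 ± 0.11 at FAT-55 on CAS and by 0.29 ± 0.11 at FAT-40 on WPI.

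Pcna and Ccne2 rose. On WPI Pcna had 61.0, 83.7 and 98.3 CPM at FAT-20, 74.7, 91.5 and 116 CPM at FAT-40, and 83.7, 99.3 and 119 CPM at FAT-55. It rose by 0.32 ± 0.07 at FAT-55 (adjusted p = 9.04e-05) and by 0.21 ± 0.07 at FAT-55 on CAS (adjusted p = 0.0142). Ccne2, cyclin E2, had 6.08, 8.31 and 12.2 CPM at FAT-20 on CAS, 9.06, 11.5 and 17.7 CPM at FAT-40, and 5.92, 8.68 and 14.1 CPM at FAT-55. It rose by 0.55 ± 0.13 at FAT-40 on CAS and 0.52 ± 0.13 at FAT-40 on WPI (adjusted p = 0.00137 and 0.00166), and on CAS it was not called at FAT-55. Mki67 and Top2a were not called in any of the 4 fat comparisons.

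**Figure D5:**
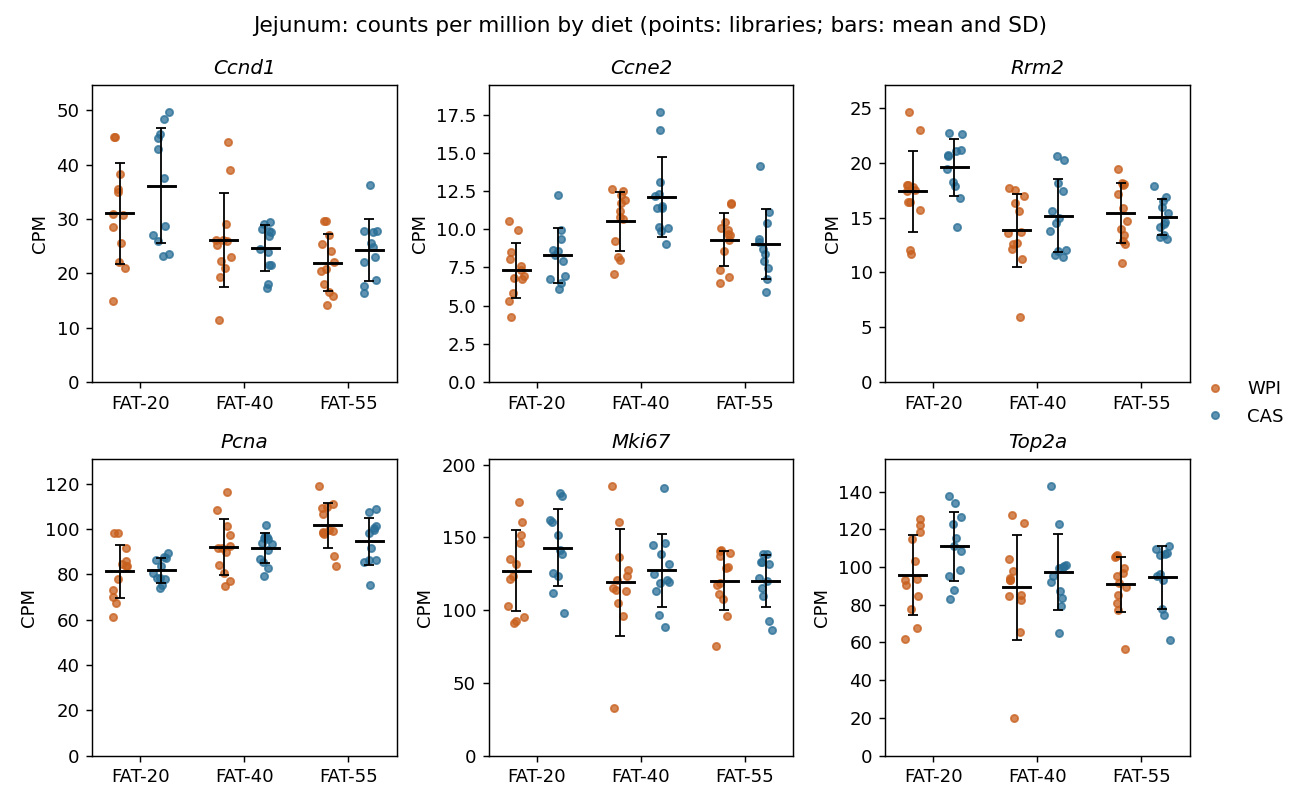
CPM of Ccnd1, Ccne2, Rrm2, Pcna, Mki67 and Top2a in jejunum (y axis) by fat level (x axis), with WPI in orange left of CAS in blue. Points are libraries and bars are means and SDs of 11 or 12 mice. Ccnd1 lies lower at FAT-40 and FAT-55 than at FAT-20, Pcna lies higher, and the Mki67 ranges overlap.

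Smooth muscle and fat markers moved with these jejunal comparisons. Of 10 smooth muscle markers, 10, 10, 8 and 10 were called lower in the fat comparisons at FAT-40 on CAS and WPI and at FAT-55 on CAS and WPI, and 6, 6, 5 and 6 of 7 adipose markers were. The smooth muscle sum ran from 336 to 1400 CPM at FAT-55 and from 849 to 4220 CPM at FAT-20 on WPI, and from 375 to 1320 CPM at FAT-55 and from 897 to 1680 CPM at FAT-20 on CAS. With smooth muscle and adipose scores in the model, 0, 0, 1 and 0 of the 35 were called, the 1 being Rrm2 at -0.50, and the values of Pcna at FAT-40 on WPI and at FAT-55 on CAS turned to -0.035 and -0.001. Of all genes 0.777%, 0.212%, 5.83% and 1.59% were called with these scores. Without WPI FAT-40 replicate 12, the counts called became 9, 1, 9 and 4 in the same order, beside 26.7%, 18.5%, 29.2% and 32.0% of all genes. Of 6 Paneth cell markers, 5, 0, 2 and 6 were called lower. Of 12 crypt stem cell markers, 0, 2, 1 and 0 were.

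The liver response was set against the jejunum response in a model over both tissues, added after seeing the data. On CAS at FAT-55 against FAT-20, 26 of the 35 differed, all more positive in liver, where 33.8% of the 18099 genes tested differed in either direction. Mki67 differed by 1.74 ± 0.29 and Ccnd1 by 1.499 ± 0.24 (adjusted p = 7.12e-07 and 3.07e-07), whereas Pcna did not pass, at -0.20 ± 0.09 (adjusted p = 0.067). On WPI 15 differed, 13 more positive and 2 more negative in liver, beside 22.0% of all genes, and Mki67 differed by 0.77 ± 0.29 (adjusted p = 0.0397), or by 0.72 with the mouse as a block (adjusted p = 0.0547). For WPI against CAS as a mean over fat levels 19 differed, 2 more positive and 17 more negative in liver, beside 11.1% of all genes. Mki67 differed there by -0.67 ± 0.16 (adjusted p = 0.00254).

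Within a diet the genes varied together from mouse to mouse, more tightly in jejunum. Pearson's r between deviations of log2 levels from the diet mean was computed over the 70 libraries of a tissue, which share the scaling of their library and, in liver, many low counts. Over the 595 pairs of the 35 genes the median r was 0.67 in jejunum and 0.30 in liver, and 0.59 and 0.27 without the library of each tissue that stood apart. Mki67 was closest to Top2a in both tissues, with r of 0.96 in jejunum and 0.85 in liver. In jejunum Kif11 (0.95) and Ccna2 (0.93) came next, and in liver Cenpe (0.79), a kinetochore motor, and Ccna2 (0.76). Pcna (-0.11) and Ccne2 (-0.03), both of which rose with fat in jejunum, were the members least like Mki67 there, and without the library that stood apart their r was 0.07 and 0.05. In liver those were Tk1 (-0.13) and Mcm7 (-0.05), with -0.22 and -0.06 without that tissue's library. These values are descriptions and carry no test.

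For some of these genes the counts over shared exon bases are uncertain, since the strand setting was not given in the sources used here. Reads over such bases may have been lost as ambiguous or counted for either gene. In GENCODE M21, 11 of the 35 share exon bases with another gene, and 4 share over 10% with 1 gene on the opposite strand: Kif20a with Cdc23 (29.3%), Ccnd1 with LTO1 (23.4%), Ccne2 with Ints8 (17.4%) and Ccna2 with Exosc9 (12.5%). Their values are uncertain for this reason, and the size of the effect was not tested. At FAT-55 on CAS in liver, Ccnd1 had a log2 fold change of 0.93 and LTO1 of -0.05, and Ccna2 had 1.31 and Exosc9 0.20. Ccne2 had -0.31 there and Ints8 -0.34.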

How the data were processed

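Total RNA of jejunum and liver was sequenced, and the authors deposited raw counts per gene, 1 column per library. STAR, Trim Galore 0.61, cutadapt, FastQC, DESeq2 1.24.0 and the build GRCm38 are named in the submitters' processing notes. The annotation and the strand setting are not given in the sources used here. Hypothalamus was not analysed here. The 4 entries that name no gene were left out of library sizes (jejunum and liver: multimapping 8.00% and 7.71% of all entries, no feature 6.34% and 5.60%, ambiguous 5.23% and 5.20%, unmapped 3.45% and 5.30%).

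Counts were tested in R 4.3.3 with edgeR 4.0.16 (filterByExpr with a minimum count of 10 and total of 15, TMM, quasi-likelihood F-test, 1 coefficient per diet) and Benjamini-Hochberg adjustment over 16992 genes in jejunum, 15051 in liver and 18099 in both. The standard error is the size of the log2 fold change divided by the square root of F. TPM used GENCODE M21 exon lengths. The code was checked on simulated data. The alternatives tried were DESeq2 1.42.0, all genes with no filter on low counts, scaling by median of ratios, marker scores as covariates (all from the same libraries), counts summed over mice sharing an identifier stem (24 stems of 2 or 3 mice per tissue), and the mouse as a block where tissues were compared. Jejunum and liver libraries pair because their labels give the same 70 animal identifiers; for 1 pair, CAS FAT-20 replicate 11, the identifier is the same but the library numbers in the titles differ, so that pair is less certain. The correlation of same-mouse deviations from the diet means across genes had a lowest value of -0.00627, a median of 0.0689 and a highest value of 0.168, and was over 0.1 in 15 mice. Any of the 35 genes could be named, with full statistics for up to 8 called genes of smallest adjusted p and for Mki67, Top2a, Pcna and Ccnd1, and up to 3 genes of each other list. The 35 genes and the lists were chosen with earlier results of these data known. The tests of the FAT-40 difference between protein sources, the tests between tissue responses and the fits without single libraries were chosen after seeing the data. In a few results the text names further genes, chosen after their values were seen.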

Additional observations from a re-analysis of the deposited data

Results flagged for a closer look

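These results differed between protein sources or tissues in a test of the difference itself. In liver, the FAT-55 response on WPI minus that on CAS was -0.59 for E2f1, a transcription factor of the G1/S step. The FAT-40 response differed in the same direction for E2f1 at -0.85 and for the helicase genes Mcm5 at -1.18, Mcm6 at -0.85 and Mcm3 at -0.66. On CAS at FAT-55 against FAT-20, the liver response minus the jejunum response passed the test for 26 of the 35 genes. It was 1.74 for Top2a, 1.74 for Mki67 and 1.499 for Ccnd1, and 33.8% of all genes passed. On WPI it passed for 15 genes, beside 22.0% of all genes, with 1.16 for Top2a, 0.96 for Ccnd1, 0.77 for Mki67 and -0.30 for Pcna. Mki67 lost this call in edgeR with the mouse as a block (adjusted p = 0.0547). For WPI against CAS as a mean over fat levels it passed for 19 genes, beside 11.1% of all genes, with -0.66 for Top2a and -0.67 for Mki67. These differences are edgeR log2 values with adjusted p under 0.05, from fits without the mouse as a block. With counts summed by identifier stem, none of the differences between protein sources kept its call. Of all genes, 0.0114% at FAT-55 and 0.0% at FAT-40 were called in those stem fits.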

How the results depend on the processing

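Counts of the 35 genes called are given for the alternatives that moved them by over 1.5 times, and the cause was not tested. With counts summed by identifier stem, the liver counts were 14 for WPI against CAS as a mean (25 with mice kept apart), 2 at FAT-40 (17), 0 at FAT-55 (18), 15 for FAT-40 on CAS (23), 0 for FAT-40 on WPI (1), 7 for FAT-55 on WPI (15) and 0 for the difference between protein sources at FAT-55 (1) and FAT-40 (4), and the jejunum count for FAT-40 on WPI was 1 (4). With a leukocyte score as a covariate, 8 were called for WPI against CAS at FAT-55 and 0 for the difference at FAT-55. With no filter on low counts, the differences between protein sources had 0 at FAT-55 and 1 at FAT-40, jejunum FAT-40 on WPI had 1, and WPI against CAS in liver minus jejunum had 12 (19). Without liver CAS FAT-20 replicate 4, the differences had 7 and 8. Without jejunum WPI FAT-40 replicate 12, the 4 jejunum fat comparisons had 9, 1, 9 and 4 (FAT-40 on CAS and WPI, then FAT-55). With smooth muscle and adipose scores as covariates they had 0, 0, 1 and 0, and Pcna turned to -0.035 at FAT-40 on WPI and -0.001 at FAT-55 on CAS, while the calls over all genes also fell, to 132, 36, 991 and 271. With the mouse as a block, 35 genes differed between jejunum and liver, and 27, 13 and 14 differed in their response between tissues (26, 15 and 19 without it). Of 95 single-gene results between tissues, 7 lost their call under the block, among them Mki67 on WPI. Of 131 single-gene calls in liver, stem sums lost 70, the leukocyte score 24, no filter 23, DESeq2 4, leaving out CAS FAT-20 replicate 4 lost 2, and median-of-ratios scaling lost 0. Of 16 in jejunum, the smooth muscle and adipose scores lost 13 with the sign kept. They also lost 2 of Pcna, whose values came to just below 0. Stem sums lost 5, no filter 4 and leaving out WPI FAT-40 replicate 12 lost 3. DESeq2, median-of-ratios scaling and a B cell score lost 1 each. In the test of jejunum against liver the median over all genes was 0.11 by TMM, 0.18 by median-of-ratios and -0.175 by DESeq2, which also tested more genes. Mitotic genes in liver rested on few reads per library, so depth limits what can be said of each of them.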
